A study of Mus musculus with 2 samples.

Results

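The AP-1 and early response factors described here are 10 genes: the FOS family (Fos, Fosb, Fosl1 and Fosl2), the JUN family (Jun, Junb and Jund), the related factor Atf3, and the early response genes Egr1 and Ier3. Members were found as the probes on both arrays whose transcript accession maps to one of these symbols, a rule that reads no measured value, although the genes themselves were picked with earlier results of these data known. The 10 genes were read by 11 probes, out of 24022 tested genes and 33012 tested probes, and all 11 probes were well above background in both channels on both arrays. Expression was compared between mouse embryonic stem cells (mESCs) depleted of AIMP3 and control mESCs. In all cells both AIMP3 alleles were flanked by loxP sites, and Cre was fused to the drug-binding part of the oestrogen receptor (AIMP3f/f;cre-ERT2). The depleted cells received 2 μM tamoxifen (4-OHT in the methods) for 4 days, the controls received ethanol, and both grew in medium with LIF. There were 2 depleted replicates, each labelled with Cy5 on an array of its own, while RNA from the control cultures was combined into 1 pool, labelled with Cy3 and placed on both arrays.

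The design limits what these ratios measure. The control was 1 sample, so variation among control cultures is missing from a test of the ratio against 0. Nothing in the labels says whether the replicates were independent experiments, so the p-values cover no spread beyond that between these 2 arrays. In limma the spread of each probe is also drawn towards that of all tested probes (1 residual and 5.28 prior degrees of freedom). The dyes were not swapped, so depletion and a gene-specific dye difference cannot be told apart. Cells without loxP sites but with active Cre were not on the arrays, so effects of the drug and of Cre itself cannot be told apart from loss of AIMP3. Eef1e1, the gene for AIMP3, had log2 ratios of -0.90 on both arrays (mean -0.90 ± 0.0067, SD, n = 2; adjusted p = 7.78e-05, limma). Adjusted p-values here follow Benjamini and Hochberg over all tested probes. Where its probe lies relative to the deleted part of the gene is not given in the sources used here.

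AP-1 is a pair of basic leucine zipper (bZIP) proteins, most often a JUN protein with a FOS or ATF protein, that binds short palindromic sites in DNA. In most cells the Fos, Jun and Egr1 genes are switched on within minutes by growth factors, serum or stress through MAP kinases, without new protein synthesis, and their mRNAs are short-lived. FOSL1 and FOSL2 usually follow later and last longer. AP-1 activity is generally lower in pluripotent stem cells than in fibroblasts.

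Promoters of 8 of the 10 members were found in a RefSeq table of mouse promoters (assembly GRCm38.p6, 250 bases before to 50 bases after the start), and Egr1 and Fosl1 had no entry there. The 120 bases before the start are shown 5′ to 3′ for Fos, Jun and Atf3, which rose and each hold a searched motif, and for Fosl2, the member with the largest ratio, which holds none. Capitals mark motif matches.
Fos, chr12:85473770-85473889, plus strand: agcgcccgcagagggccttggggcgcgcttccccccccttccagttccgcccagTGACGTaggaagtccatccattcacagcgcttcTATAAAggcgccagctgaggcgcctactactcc
Jun, chr4:95052223-95052342, minus strand: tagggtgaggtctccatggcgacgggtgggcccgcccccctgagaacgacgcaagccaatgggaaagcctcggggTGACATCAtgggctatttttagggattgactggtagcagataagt
Atf3, chr1:191183334-191183453, minus strand: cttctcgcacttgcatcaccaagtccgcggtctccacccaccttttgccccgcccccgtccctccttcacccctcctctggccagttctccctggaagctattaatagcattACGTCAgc
Fosl2, chr5:32136352-32136471, plus strand: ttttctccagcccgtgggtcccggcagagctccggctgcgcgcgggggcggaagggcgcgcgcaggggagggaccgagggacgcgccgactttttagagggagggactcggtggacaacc

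The motifs were searched on both strands. The core of the cyclic AMP response element, TGACGT, lay at -66 to -61 in the Fos promoter and, on the other strand, at -8 to -3 in that of Atf3. It was present in 7.51% of all 32851 promoters of the same length. TGACATCA, a variant of that element to which JUN and ATF2 bind, lay at -45 to -38 in the Jun promoter and in 3.62% of all promoters. A TATA box, TATAAA, lay at -33 to -28 in the Fos promoter and in 13.6% of all promoters, and a further match was found at 1 to 6 of Junb, after its start. The AP-1 site TGANTCA (7.81% of all promoters), the full element TGACGTCA (1.79%, which contains TGACGT) and the CArG box, the SRF site (1.63%), had 0 matches among the 8 member promoters. A match describes letters in this window and is not a measured binding site. Sequence further from the start, and the promoters of Egr1 and Fosl1, were not searched, so 0 matches do not show that a gene lacks a site.

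Of the 10 members, 5 were higher in AIMP3-depleted mESCs by over 1.5-fold with an unadjusted p under 0.05, the threshold of the methods. These were Fosl2, Atf3, Fosl1, Jun and Fos, with mean log2 ratios from 0.74 to 1.47. The share of all tested genes called higher was 5.53%. No member was called lower (0 of 10), against 0.791% of all genes, and 6.32% of all genes were called in either direction. Counted by probe, 5 of the 11 member probes were called higher, against 4.97% of all tested probes, and 0 were lower, against 0.745%. At 2-fold, 2 members remained (Fosl2 and Atf3), against 1.17% of all genes. Adjusted over all tested probes by limma, 9 of the 10 members had p under 0.05 at any fold, all of them higher, but so had 51.8% of all genes in either direction and 29.4% in the direction of higher. The median log2 ratio of the members was 0.60, beside 0.016 over all genes. The plot of ratios by array shows these values for every member probe.

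**Figure D1:**
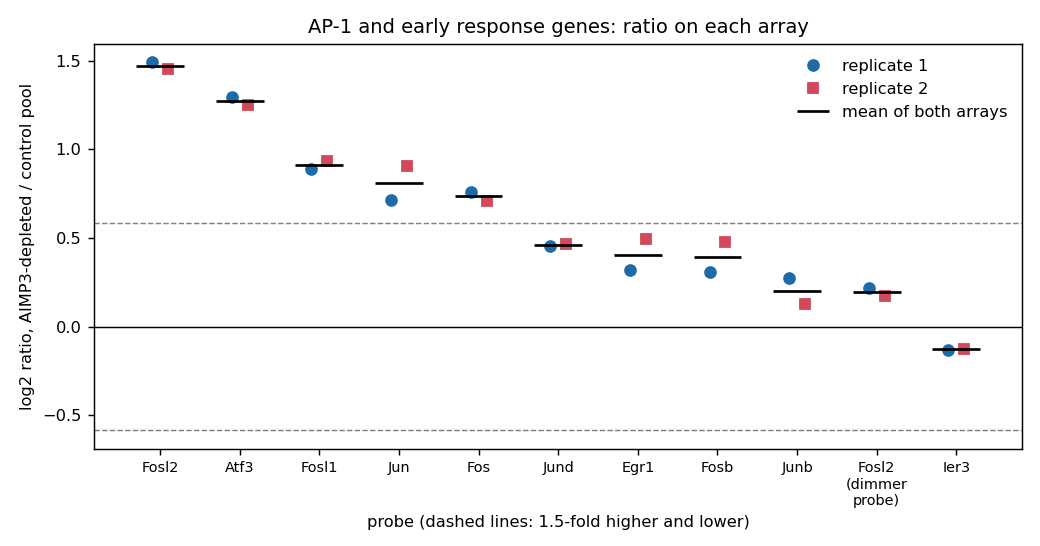
Log2 ratio of AIMP3-depleted mESCs over the control pool for each of the 11 member probes, on the array of replicate 1 (circles) and of replicate 2 (squares), with the mean of both as a bar. Both arrays lie above the dashed 1.5-fold line for the brightest probe of Fosl2 and for Atf3, Fosl1, Jun and Fos, and both lie below 0 for Ier3.

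Signals are given below in the scanner's processed intensity units, after its own background subtraction and dye normalization. They compare the same probe between channels, since the brightness of different probes depends on the probe and does not rank the genes. The ratios come from a separate correction, with normexp and an offset of 50 that draws the ratios of dim probes towards 0, followed by loess. The control pool was read on both arrays, and its signal for a member probe differed between them by 0.91% to 30.1%, with a median of 4.81%. For all 11 member probes the control and depleted signals did not overlap (0 probes overlapped). The share of all tested probes without overlap was not counted, and the 11 include probes not past the threshold. The lack of overlap therefore does not set the members apart from other genes.

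Fosl2, a FOS family member without a strong activation domain of its own that pairs with JUN proteins, had the highest ratio of the members. Its control signals were 208 and 198 on the arrays of replicates 1 and 2, and its depleted signals were 634 and 646. The depleted signal was thus higher on both arrays, by more than the 2 readings of the same control pool differed, which is technical spread and not that between cultures. The log2 ratios were 1.49 and 1.46, with a mean of 1.47 ± 0.026 (SD, n = 2), a 95% interval of 1.36 to 1.59 and an adjusted p of 5.68e-05 by limma, which is a 2.78-fold rise and placed Fosl2 28th from the top among 24022 genes. Fosl2 was the member with a second probe, and that probe was dim and did not pass the threshold. It read 27.9 and 37.8 in the control and 38.4 and 44.8 in the depleted cells, with log2 ratios of 0.22 and 0.17 (mean 0.19 ± 0.034, SD, n = 2; adjusted p = 0.0157). Both Fosl2 probes were positive on both arrays, but they differed in size, and their mean was 0.83. Which of the transcripts each probe reads was not tested.

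Fosl1, which encodes FRA-1, a FOS family protein linked to cell migration and invasion, rose from a dim control level. The control signals were 43.4 and 42.9 and the depleted signals 118 and 124, so the control pool read nearly alike on both arrays. The log2 ratios were 0.89 and 0.93, with a mean of 0.91 ± 0.029 (SD, n = 2; adjusted p = 7.78e-05), or 1.88-fold. Fosl1 was the member whose size depended most on the background correction and dye normalization among those that rose. The log2 ratio was 1.16 with an offset of 0 and 1.49 (2.80-fold) with the processed signals, in which both steps differ, and there it stood above Atf3 instead of below it.

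Fos, the founding member of the family and a classical immediate early gene, was read by 1 probe printed as 10 spots on each array. After spots with an outlier flag were left out, 9 spots were used for replicate 1 and 7 for replicate 2. The mean control signals were 119 and 110 and the mean depleted signals 221 and 202. On the first array the used control spots ranged from 99.0 to 138 and the depleted spots from 209 to 231, and on the other from 98.6 to 118 and from 188 to 227. No used control spot therefore reached a used depleted spot on either array. The log2 ratio of the spots had a minimum of 0.575, a median of 0.75 and a maximum of 0.97 (SD 0.123) on the array of replicate 1, where 8 of 9 spots passed 1.5-fold. On the array of replicate 2 the minimum was 0.63, the median 0.68 and the maximum 0.79 (SD 0.0693), and 7 of 7 spots passed 1.5-fold. Spots of one array share the same labelled RNA and are not replicates of the condition. Averaged per array, the log2 ratios of Fos were 0.76 and 0.71, with a mean of 0.74 ± 0.034 (SD, n = 2; adjusted p = 0.00013), or 1.67-fold.

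**Figure D2:**
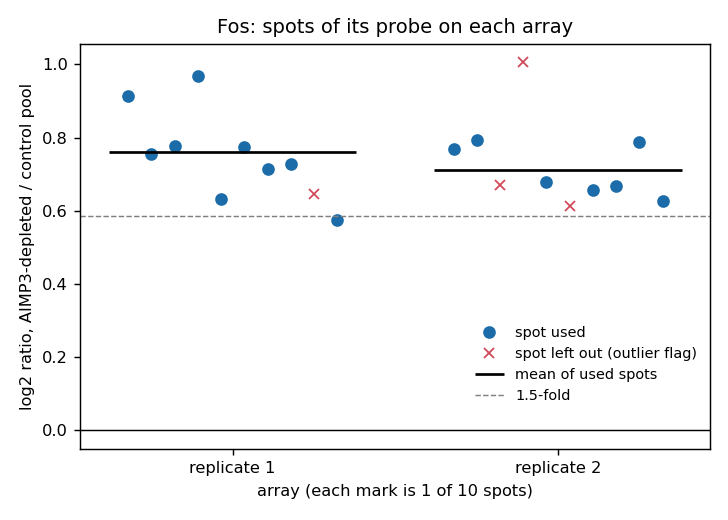
Log2 ratio of AIMP3-depleted mESCs over the control pool at each of the 10 spots of the Fos probe on each array; circles are used spots, crosses spots left out for an outlier flag, and bars the mean of used spots. Used spots run from 0.575 to 0.97 for replicate 1 and from 0.63 to 0.79 for replicate 2, all above 0.

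Fosb, whose product resembles FOS and is known best from neurons, did not pass the threshold. It read 68.1 and 54.4 in the control and 82.6 and 90.6 in the depleted cells. The depleted signals were higher, but the control pool itself differed between the arrays. The log2 ratios were 0.31 and 0.48, with a mean of 0.39 ± 0.12 (SD, n = 2; adjusted p = 0.00222). With the processed signals the adjusted p of Fosb was 0.0849 by limma.

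Jun, the JUN protein that pairs with FOS and ATF proteins and activates its own promoter, was the JUN family member that rose. Its control signals were 2143 and 2044 and its depleted signals 3454 and 3750, so both depleted readings lay above both control readings. The log2 ratios of Jun were 0.71 and 0.90, with a mean of 0.81 ± 0.14 (SD, n = 2; adjusted p = 0.000202 by limma), or 1.75-fold. With normexp and loess, Jun had the widest gap between the arrays of all member probes. With the processed signals the gap of Fosb (log2 ratios 0.28 and 0.73) was wider than that of Jun (0.69 and 0.88). Under the methods' t-test on the 2 ratios its unadjusted p was 0.0753, which ended the call, and an exact two-sided sign-flip test over 2 arrays cannot go below p = 0.5. After Benjamini-Hochberg adjustment the methods' t-test called 0 genes, members included, against 993 genes without it.

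Jund, a more constantly expressed JUN protein, and Junb, which can hold JUN activity in check, did not pass. Jund read 4926 and 4706 in the control and 7096 and 6751 in the depleted cells, with log2 ratios of 0.45 and 0.47 (mean 0.46 ± 0.0098, SD, n = 2; adjusted p = 0.000563). The arrays agreed closely, but the ratio stayed under 1.5-fold, and it passed with median centring in place of loess, at 0.72. Junb read 29.0 and 26.7 in the control and 36.4 and 31.7 in the depleted cells, with log2 ratios of 0.27 and 0.13 (mean 0.20 ± 0.10, SD, n = 2; adjusted p = 0.0236). Junb was dim in both channels, where the offset weighs most.

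Atf3, a stress-induced bZIP factor that pairs with JUN proteins and is known to repress many targets, rose next to Fosl2. It read 273 and 295 in the control and 687 and 724 in the depleted cells. The channels were apart by more than the 2 readings of either channel. The log2 ratios of Atf3 were 1.30 and 1.25, with a mean of 1.27 ± 0.035 (SD, n = 2; adjusted p = 5.68e-05), or 2.42-fold, which ranked it 91st among all genes. Between the settings tried, its log2 ratio lay between 1.25 and 1.46.

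Egr1, a zinc finger factor induced by MAP kinases and SRF, did not pass 1.5-fold. It read 228 and 224 in the control and 287 and 297 in the depleted cells, with log2 ratios of 0.32 and 0.50 (mean 0.41 ± 0.13, SD, n = 2; adjusted p = 0.00205). Ier3, an early response gene that protects cells from apoptosis and acts on ERK signalling, was the member with a negative ratio. It read 1148 and 1137 in the control and 1028 and 996 in the depleted cells, with log2 ratios of -0.13 on both arrays (mean -0.13 ± 0.0019, SD, n = 2; adjusted p = 0.0577). Median centring gave 0.086 for Ier3 but moved the median of all genes from 0.016 to 0.18, so Ier3 lay below the median of all genes in both settings.

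**Figure D3:**
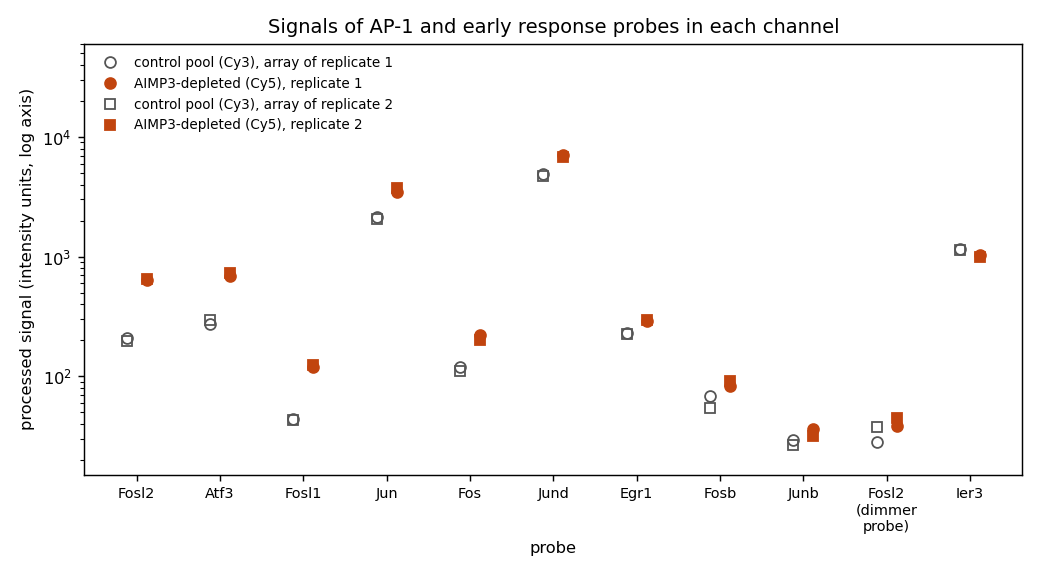
Processed signal (intensity units, log axis) of each member probe in the control pool (open marks) and in AIMP3-depleted mESCs (filled marks), with circles for the array of replicate 1 and squares for that of replicate 2. Filled marks lie above open marks for 10 of the 11 probes and below them for Ier3; heights of different probes do not rank the genes.

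In the order of their ratios, Fosl2 and Atf3 stood above the other members on both arrays with normexp and loess and the brightest probe of Fosl2. With the mean of its probes Fosl2 (0.83) lay below Atf3 (1.27) and Fosl1 (0.91), and with the processed signals Fosl1 (1.49) lay above Atf3 (1.32). The array values of Fosl1 and Jun overlapped, as did those of Jun and Fos. A gap followed between Fos and the group of Jund, Egr1 and Fosb, whose array values overlapped one another, and Junb and Ier3 came last. The order rests on probes of different brightness, so it is a description of these ratios and not of the change in mRNA number. The plot of settings gives the ratios under each background correction and dye normalization.

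**Figure D4:**
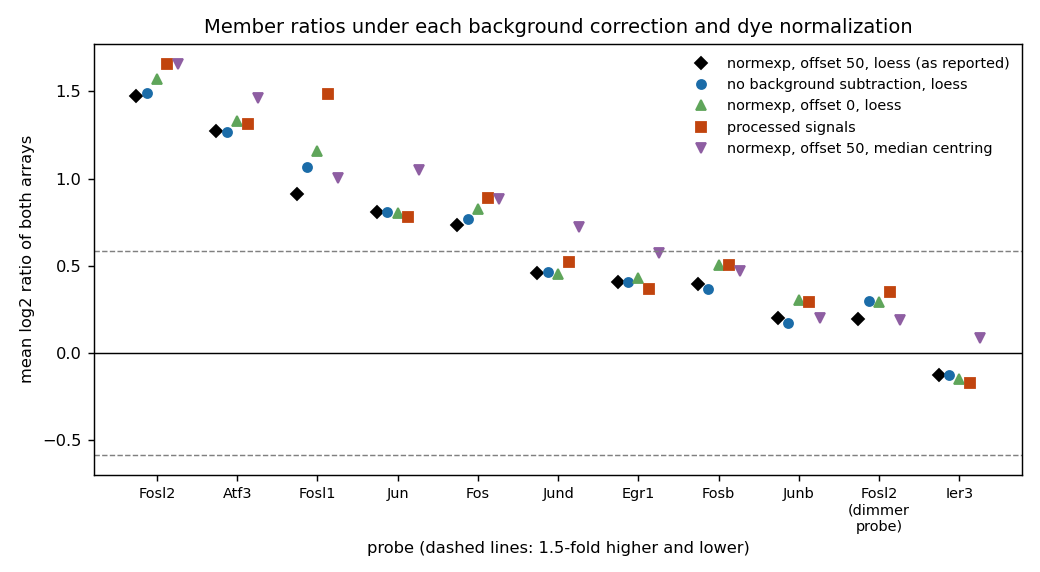
Mean log2 ratio of both arrays for each member probe under 5 combinations of background correction and dye normalization, with dashed lines at 1.5-fold. The brightest probe of Fosl2, and Atf3, Fosl1, Jun and Fos stay above the upper line in all 5, Jund crosses it with median centring (0.72), and Ier3 moves from -0.13 to 0.086 as the median of all genes moves to 0.18.

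Markers of other cell types moved in the same direction as the members that rose. The labels say that the cells were generally kept on feeder layers of mouse embryonic fibroblasts (MEFs), while the methods state that drug incubations were done in MEF-conditioned medium. How many feeder cells, if any, remained in the RNA is not given in the sources used here. Of 22 fibroblast markers, 20 were tested, 16 were higher and 0 lower, against 5.53% and 0.791% of all genes. The median log2 ratio of the tested markers was 0.82. The 3 largest were Tagln and Acta2, which encode contractile proteins (1.47 and 1.33), and S100a4, which encodes a calcium-binding protein (1.40). The summed signal of the tested fibroblast markers was 58550 and 56640 in the control and 128200 and 132900 in the depleted cells. Sums of markers are in intensity units after normexp and loess, not in the scanner's processed units. All 20 were well above background in the control, and Fap and Lum were too dim on the arrays to be tested. Their part in the members' ratios was not tested. In bulk RNA, a change in the number of cells of a type and a change in RNA per cell cannot be told apart.

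Primitive endoderm markers, which label the cells that form the yolk sac lining, rose as well. Of 17 markers, 15 were tested, 14 were higher and 0 lower, against 5.53% and 0.791% of all genes. The median log2 ratio of the tested markers was 1.02. The endoderm transcription factors Sox17 and Foxa2 had log2 ratios of 1.44 and 1.38, and Sparc, a matrix protein, had 1.24. Their summed signal after normexp and loess was 188400 and 197800 in the control and 401700 and 408400 in the depleted cells. Afp and Ttr were not tested. The part of endoderm cells in the members' ratios was not tested either. For the labelled cell type, all 10 pluripotent stem cell markers were well above background in the control. Of these 10, 0 were higher and 1 was lower, against 5.53% and 0.791% of all genes. The median of the 10 was -0.22, and the 1 called lower was Tdgf1, a NODAL co-receptor (log2 ratio -0.59). That call was lost with the processed signals, the deposited table and the methods' t-test (0 called in each), and median centring gave 1 higher and 0 lower. At any fold with an adjusted p under 0.05 by limma, 6 were lower and 2 higher, against 22.4% and 29.4% of all genes. The core factors of pluripotency had log2 ratios of -0.53 for Sox2, -0.48 for Pou5f1 and -0.38 for Nanog (0.06 from its other probe), all under 1.5-fold. The summed signal of the pluripotency markers after normexp and loess was 263200 and 273500 in the control and 296200 and 302600 in the depleted cells. A sum weighs bright genes more than a median does, and Dppa5a, a marker of naive cells, had a log2 ratio of 0.50, under 1.5-fold.

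The genes around AP-1 were read from lists of the pathway by the same threshold, against 5.53% of all genes called higher. That share was 8.06% with the processed signals, 8.85% with the deposited table, 7.17% with an offset of 0, 11.8% with median centring, 5.01% with the mean of all probes and 3.6% under the methods' t-test, and a list's count under each setting is to be read against it. Among partners that form bZIP pairs with JUN or FOS proteins, 10 of 12 were tested, 2 were higher and 0 lower, with a median log2 ratio of 0.20. Jdp2, a JUN partner that represses AP-1 sites, had a log2 ratio of 0.97, and Maf, a large MAF factor, was called higher. The Maf probe was well above background in the control on 0 of 2 arrays, so the size of its rise is not given. The call is open to dye bias, and Maf entered the test through the depleted channel alone. With probes well above background in every channel, 1 partner remained. Atf7 and Batf2 were not tested. With the processed signals 4 of these partners changed, 3 of them higher, and 0 did under the methods' t-test.

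Of the 18 kinases and transcription factors upstream of AP-1, 3 were higher and 0 lower, with a median of 0.17. Elk3 and Elk1, ternary complex factors that bind the Fos promoter with SRF, had log2 ratios of 0.89 and 0.84, and Mrtfb, an SRF co-activator, had 0.62. The other probes of these genes did not all follow. The other 2 Elk3 probes gave 1.03 and 0.17, the other Elk1 probe gave -0.08, and the other Mrtfb probe gave 0.13. With the mean of all probes, 1 of the 18 genes passed, where 5.01% of all genes were higher, and with median centring 5 did, where 11.8% were. Srf itself had a log2 ratio of 0.02 (adjusted p = 0.695), with 0.18 from its other probe.

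Inhibitors that MAP kinases induce against themselves numbered 14, of which 3 were higher and 0 lower (median 0.22), with 1 higher under the methods' t-test and 5 with median centring. All 3 encode dual-specificity phosphatases: Dusp1, which removes phosphate from JNK, p38 and ERK (log2 ratio 0.90), Dusp10 (0.64) and Dusp8 (0.59). Dusp10 was under 1.5-fold on the array of replicate 2 (0.56), and Dusp8 on that of replicate 1 (0.53). Dusp6, the cytoplasmic ERK phosphatase, had 0.11, and Spry1, an inhibitor of receptor tyrosine kinase signalling, had -0.31, neither past the threshold. The EGR1 co-repressor Nab2 was higher (log2 ratio 0.94), and its relative Nab1 was not past the threshold (0.47), except with median centring, where 2 of 2 passed.

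Other early response genes were 30, of which 27 were tested. Of these, 7 were higher and 0 lower, 19 had a positive and 8 a negative ratio, and the median was 0.38. With median centring 13 of the 27 were higher, but so were 11.8% of all genes, whose median moved to 0.18. The 3 largest rises were those of Ptgs2, the inducible prostaglandin synthase (log2 ratio 1.37), Rhob, an actin-regulating GTPase (1.20, with 0.42 from its other probe), and Klf6, a zinc finger factor (1.04). At the other end Ier2, a textbook immediate early gene, had -0.02, and Mcl1, an anti-apoptotic BCL2 relative, had -0.42, with 0.03 from its other probe, so the early response genes did not move as one group. Egr3, Egr4 and Nr4a3 were not tested.

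Known AP-1 target genes numbered 23, all tested, of which 10 were higher and 0 lower, with a median log2 ratio of 0.54. The count was 16 with the deposited table, 14 with the processed signals and 15 with an offset of 0, all of them higher, while the shares of all genes rose to 8.85%, 8.06% and 7.17%. The 3 largest rises were those of Krt18, a keratin of simple epithelia (log2 ratio 1.78), Ccl2, a chemokine (1.42), and Vim, the intermediate filament of mesenchymal cells (1.42). Ereg, Plaur, Cd44, Mmp3, Timp1 and Hbegf also rose. The metalloproteinase genes had log2 ratios of 0.84 for Mmp3, 0.39 for Mmp10, 0.24 for Mmp9 and 0.19 for Mmp13, all but Mmp3 under 1.5-fold. Mmp13 was well above background in the control on 1 of 2 arrays. These probes were dim, where the offset draws ratios towards 0, and differences among these genes were not tested. Many of these targets, Vim, Ccl2 and Timp1 among them, are also expressed by fibroblasts, and Krt18 by endoderm, whose marker lists rose in the same samples by the values given above, and the part of such cells in the targets' ratios was not tested. In all 6 lists together, 26 of 94 tested genes were higher and 0 lower, against 5.53% and 0.791% of all genes. At any fold with an adjusted p under 0.05 by limma, 62 of the 94 were higher and 8 lower, against 29.4% and 22.4% of all genes.

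**Figure D5:**
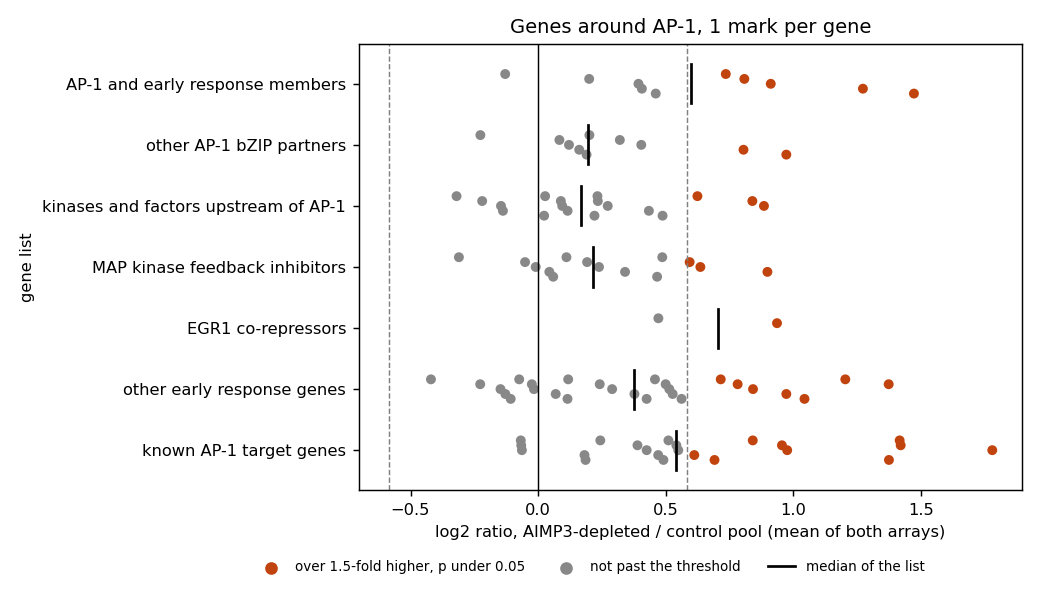
Mean log2 ratio of AIMP3-depleted mESCs over the control pool for each tested gene of the member list and of 6 lists around AP-1; orange marks are genes over 1.5-fold higher with p under 0.05, grey marks are not past the threshold, and black bars are medians over all tested genes of a list (1 known target gene is not drawn). The medians run from 0.17 for upstream kinases and factors to 0.70 for the EGR1 co-repressors, which are 2 genes, and 0.60 for the members.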

How the data were processed

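The deposited scanner files hold spot and background intensity in both channels, unnormalized, with processed signals and a log10 ratio that the software made for the authors; the header names Feature Extraction 11.5.1.1. The value table that the authors deposited is in log2 ratios, which equalled log2 of the processed Cy5 over Cy3 signals plus 0.0404 and 0.0395 (within 0.01 for 99.7% of 55681 probes), with column medians of 0.0909 and 0.1112. It is positive where depleted cells are higher and is not independent of the processed signals. All of its columns were used (0 left out).

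Here, median signals were corrected with limma's normexp (offset 50) and normalized by loess within arrays. Control spots and outlier-flagged spots (215 and 227) were left out and spots averaged per probe. A probe had to be well above background on both arrays, in 1 channel or more, and was tested against 0 across all probes with lmFit and eBayes (1 residual and 5.28 prior degrees of freedom). The brightest probe stands for a gene, and accessions were named from RefSeq. Signal over background had medians of 2.68 to 3.31, 0 spots were saturated, and the arrays, on 1 slide scanned once, correlated at 0.908 over tested probes. The steps were tested on simulated data. All members, Eef1e1 and, per list, up to 3 largest rises and falls past the threshold were named by rule; the other named list genes were chosen after their values were seen. The value of 1 known AP-1 target gene is not reported here, though the counts and median of its list include it. Members and lists were chosen with earlier results of these data known. R 4.3.3, limma 3.58.1, Python 3.11.15, pandas 2.3.3 and matplotlib 3.10.9 were used.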

Additional observations from a re-analysis of the deposited data

How the results depend on the processing

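Over 13 alternatives that keep the threshold, among them each array alone, the fold calls of Fosl2, Atf3, Fosl1 and Fos held, and that of Jun held in all but the methods' t-test. The ranges of the log2 ratio were 0.83 to 1.70 for Fosl2, 1.25 to 1.46 for Atf3, 0.89 to 1.53 for Fosl1, 0.71 to 1.05 for Jun and 0.71 to 0.93 for Fos. The offset of 0 was added after dim member signals were seen. Ier3 changed sign to 0.086 with median centring, where the median of all genes was 0.18, so it stayed below that median. Having only 2 arrays limits the precision. Fosl1, Junb and Fosb were dim, with SDs between arrays of 0.029, 0.10 and 0.12, beside 0.14 for the bright Jun probe and a median of 0.051 over tested probes. Whether dim signals lower the precision was not tested. The cause of the differences between settings was not tested.

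Past the threshold were 1518 genes and 1887 probes, and 2706 and 3734 with the processed signals, 2891 and 3466 with median centring, 2740 and 3742 with the deposited table, and 993 and 1201 under the methods' t-test (0 genes after adjustment). At any fold with an adjusted p under 0.05 by limma there were 12453 genes, 16684 probes, 9 members and 70 genes of the pathway lists, and over 2-fold 298 genes, 352 probes, 2 members, 8 pathway genes and 16 marker genes, with Eef1e1 (-0.90) below that fold. Rises made up 87.5% of called genes, 71.6% with the processed signals, 77.6% with the deposited table and 97.8% with median centring. No paired analysis was possible because there was 1 group of arrays and 1 control pool.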
